A study of Homo sapiens with 9 samples.

Results

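Expression of the cytosolic ribosomal protein genes was examined in PANC1 cells, a line from a human adenocarcinoma of the pancreatic duct, in which NUSAP1 had been overexpressed or knocked down. Members were taken by name and biotype: genes named as proteins of the large (RPL) or small (RPS) subunit of the cytosolic ribosome, with RPLP0, RPLP1, RPLP2 and RPSA, that had a protein-coding transcript. A member also needed an FPKM (a read count scaled by transcript length and library size) of 1 or more in at least 3 of 9 libraries. RPS6 kinase genes were left out by name, and so was the ribosomal protein gene pair of the Y chromosome. Of 60612 genes in the deposited table, 84 fitted the name and biotype and 82 passed the FPKM filter. The 2 that did not pass were RPL3L, with 0.0940 to 0.484 FPKM, and RPL10L, which had no reads in any library. Members were not chosen by how they responded. By class, 31 encode small-subunit proteins, 43 large-subunit proteins, 3 proteins of the ribosomal stalk, and 5 are paralogues of a main ribosomal protein gene.

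The 9 libraries fell into 3 groups of 3. Overexpression cells had received a plasmid coding for flag-tagged NUSAP1, which binds and bundles spindle microtubules in mitosis, and knockdown cells a small interfering RNA (siRNA) against NUSAP1. Control cells were wild type and untreated, and no group with an empty plasmid or a control siRNA is among the labels, so transfection and NUSAP1 level cannot be told apart in a comparison with control. All 3 groups are the same cell line, and the labels do not say that replicates came from separate cultures, so the p-values reflect only how far these libraries scatter, which may be technical.

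The cytosolic ribosome joins a small subunit, which reads the mRNA, to a large subunit, which forms the peptide bond. Its proteins are made in near-equal amounts, and most of their mRNAs begin with a 5′ terminal oligopyrimidine (TOP) tract, a C followed by a run of pyrimidines, through which mTOR and LARP1 set their translation and stability. Because these mRNAs are among the most abundant of a growing cell, their summed level is a large part of the polyadenylated RNA. Several ribosomal protein genes also carry small nucleolar RNAs (snoRNAs, guides of ribosomal RNA modification) in their introns.

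Total counts ranged from 57115172 to 73386227 per library. NUSAP1 had 13320.0, 13790.0 and 12910.0 FPKM in the overexpression libraries, 12, 13.8 and 11.6 FPKM in the knockdown libraries and 30.9, 34 and 42.1 FPKM in the control libraries, in the order the labels give. Of 11 epithelial and ductal markers, 9 passed the FPKM filter. KRT8 had 22.1 to 40.5 FPKM and SOX9 32.2 to 37.5 FPKM over the 9 libraries, while EPCAM was low, at 0.632 to 1.84 FPKM. KRT18 had 106, 95.9 and 130.0 FPKM in overexpression libraries, against 56, 58.7 and 80.8 FPKM in control libraries, and rose (log2 fold change 0.84 ± 0.16, adjusted p = 0.0027). CDH1 had 0.308, 0.314 and 0.266 FPKM in overexpression libraries, against 1.86, 1.77 and 1.91 FPKM in control libraries, and fell (-2.54 ± 0.18, adjusted p = 8.7e-06). Hepatocyte markers stood apart in 4 libraries: their 15 genes summed to 68.4 and 79.1 CPM (counts scaled to the library's total) in overexpression 1 and 3 and to 72.6 and 94.4 in control 2 and 3, against 0.593 to 2.10 in the other 5 libraries. No hepatocyte marker was at 0 in every library, and none of the 3 overexpression or 3 control libraries differs from the rest of its group by label. Results are given below with and without these 4 libraries. Leaving them out keeps 1 overexpression and 1 control library, so counts of calls also drop with the replicates. Those counts do not measure the part of hepatocyte transcripts. Leukocyte markers summed to 0.669 to 6.88, 0.287 to 0.742 and 3.45 to 8.21 CPM in overexpression, knockdown and control. The 4 fibroblast markers, of which 2 passed the FPKM filter and none was at 0 in every library, summed to 97.9 to 102 CPM in overexpression, 152 to 161 CPM in knockdown and 209 to 225 CPM in control, without overlap. COL1A1 and COL3A1, collagen genes of that list, fell after overexpression (-0.97 ± 0.06 and -1.87 ± 0.12, adjusted p = 7.0e-06 and 5.9e-06). COL1A1 also fell after knockdown (-0.66 ± 0.06, adjusted p = 5.5e-04). There COL3A1 lay in the other direction and was not called (0.35 ± 0.11, adjusted p = 0.071). The part of these markers in the members' results was not tested.

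RefSeq start sites in GRCh38.p14 were available for 66 of the 82 members. A tract, read on the gene's strand as a C followed by at least 4 bases that are each C or T and starting within 5 bases of the annotated start, was present at 54 of them (81.8%), against 6886 of 27305 symbols in the same reference table (25.2%) and 16 of 69 mitochondrial ribosomal protein genes (23.2%). A symbol counted as having a tract if any of its annotated starts had one, and a window printed for it is of such a start. The following 30-base windows run from 10 bases before the annotated start and show the members the results turn on. The tract is in capitals, and windows without capitals held no tract in this position. The first 7 belong to main genes that fell after overexpression.
RPS3A (chr4:151099618-151099647, plus strand): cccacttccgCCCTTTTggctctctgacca
RPS24 (chr10:78033853-78033882, plus strand): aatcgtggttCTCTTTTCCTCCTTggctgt
RPL7A (chr9:133348208-133348237, plus strand): attccCTTTCCTTTCTCTCTCCTCCCgccg
RPL3 (chr22:39319604-39319633, minus strand): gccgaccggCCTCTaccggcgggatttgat
RPLP0 (chr12:120201092-120201121, minus strand): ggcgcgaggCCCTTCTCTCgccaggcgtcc
RPL22 (chr1:6199576-6199605, minus strand): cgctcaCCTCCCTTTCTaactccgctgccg
RPL26 (chr17:8383174-8383203, minus strand): gcgtgtagttCTCTTCCCTTTTgcggccat
The next 3 were called in both comparisons with control: RPL4 was higher in both, RPL15 lower after overexpression and higher after knockdown, and RPL36A lower in both.
RPL4 (chr15:66504836-66504865, minus strand): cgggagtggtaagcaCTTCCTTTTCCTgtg
RPL15 (chr3:23916535-23916564, plus strand): tggggcctgctggaggagcttcacgcagtc
RPL36A (chrX:101391001-101391030, plus strand): ctcgcggtttCTTTCTTTCCgcgccgatag
The last 5 are 4 paralogues and RPS27, the main gene of RPS27L.
RPL22L1 (chr3:170870176-170870205, minus strand): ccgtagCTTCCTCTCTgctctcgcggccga
RPL26L1 (chr5:172958719-172958748, plus strand): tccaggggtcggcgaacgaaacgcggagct
RPL7L1 (chr6:42879606-42879635, plus strand): gtgcggcgccgtagctaggagcggacgcca
RPS27 (chr1:153990752-153990781, plus strand): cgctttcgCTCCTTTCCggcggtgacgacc
RPS27L (chr15:63157458-63157487, minus strand): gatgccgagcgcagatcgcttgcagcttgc
A tract was present at 13 of 16 members that fell after overexpression, at 2 of 3 that rose and at 39 of 47 that were not called. Its frequency was thus close to that of all members in the members that fell (81.2%) and in those not called (83.0%). A match describes these letters only; whether a given mRNA starts there in PANC1 was not measured.

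The members held 5.14%, 4.33% and 5.03% of the total count in overexpression libraries, 6.38%, 5.81% and 6.89% in the knockdown libraries, and 5.68%, 5.55% and 6.50% in the control libraries. All overexpression libraries lay below all libraries of the other groups, and knockdown and control overlapped. NUSAP1 itself took 5.78%, 6.0% and 5.63% of the counts in the overexpression libraries, and with its counts left out the members' share there was 5.46%, 4.60% and 5.34%, still below every knockdown and control library. The small subunit held 41.47% to 42.34% of the members' counts in overexpression libraries, 42.82% to 43.81% in knockdown libraries and 42.13% to 42.78% in control libraries. Knockdown lay just above the other groups, and overexpression and control overlapped.

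**Figure D1:**
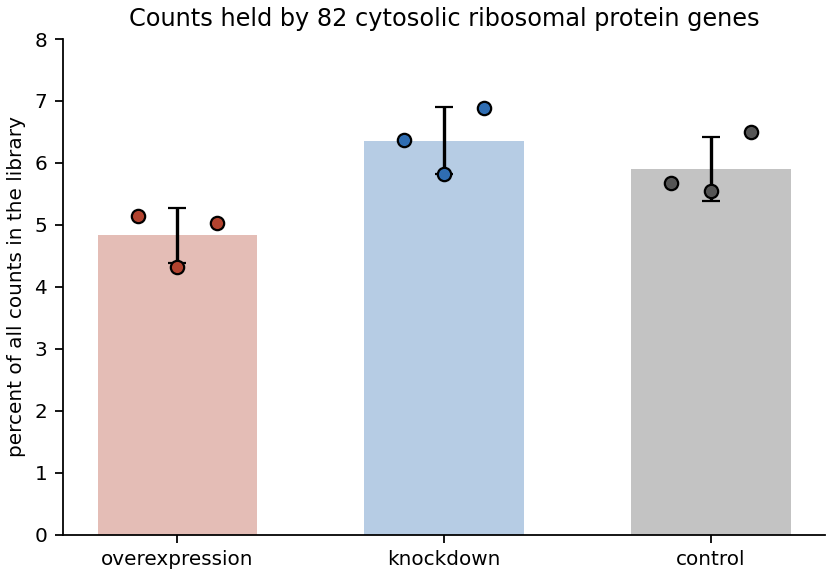
Share of all counts held by the 82 members, in percent, for the overexpression, knockdown and control groups. Bars are group means, error bars SD, and points single libraries (3 per group); the overexpression points (4.33% to 5.14%) lie below all others.

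On the deposited FPKM scale the highest member in control was RPS16, a small-subunit protein gene, with 1509, 1203 and 1322 FPKM in overexpression, 2096, 1867 and 2199 in knockdown and 1519, 1551 and 1915 in control. RPS2, RPL41, RPS12 and RPL8 came next in control. RPS2 and RPS12 belong to the small subunit, while RPL41, which encodes the shortest protein of the ribosome, and RPL8 belong to the large one. The lowest were RPS27L, RPL22L1, RPS29, RPL7L1 and RPL39L, of which all but RPS29 are paralogues. Levels per length depend on the length used. Deposited counts and FPKM implied a length that was, at the median of tested genes, 1.19 times the summed length of all annotated exons. In 69 of 82 members the ratio was within 5% of that median. RPS29 has an annotated total of 9845 bases against a median of 582.5 bases in its coding transcripts. With reads per base of the median coding transcript the order of the 82 members kept a Spearman rank correlation of 0.716 with the FPKM order, a description across genes of the same libraries. RPS16 was first and RPS2 second on both scales, whereas RPS12 ranked 4 by FPKM and 38 per coding base.

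**Figure D2:**
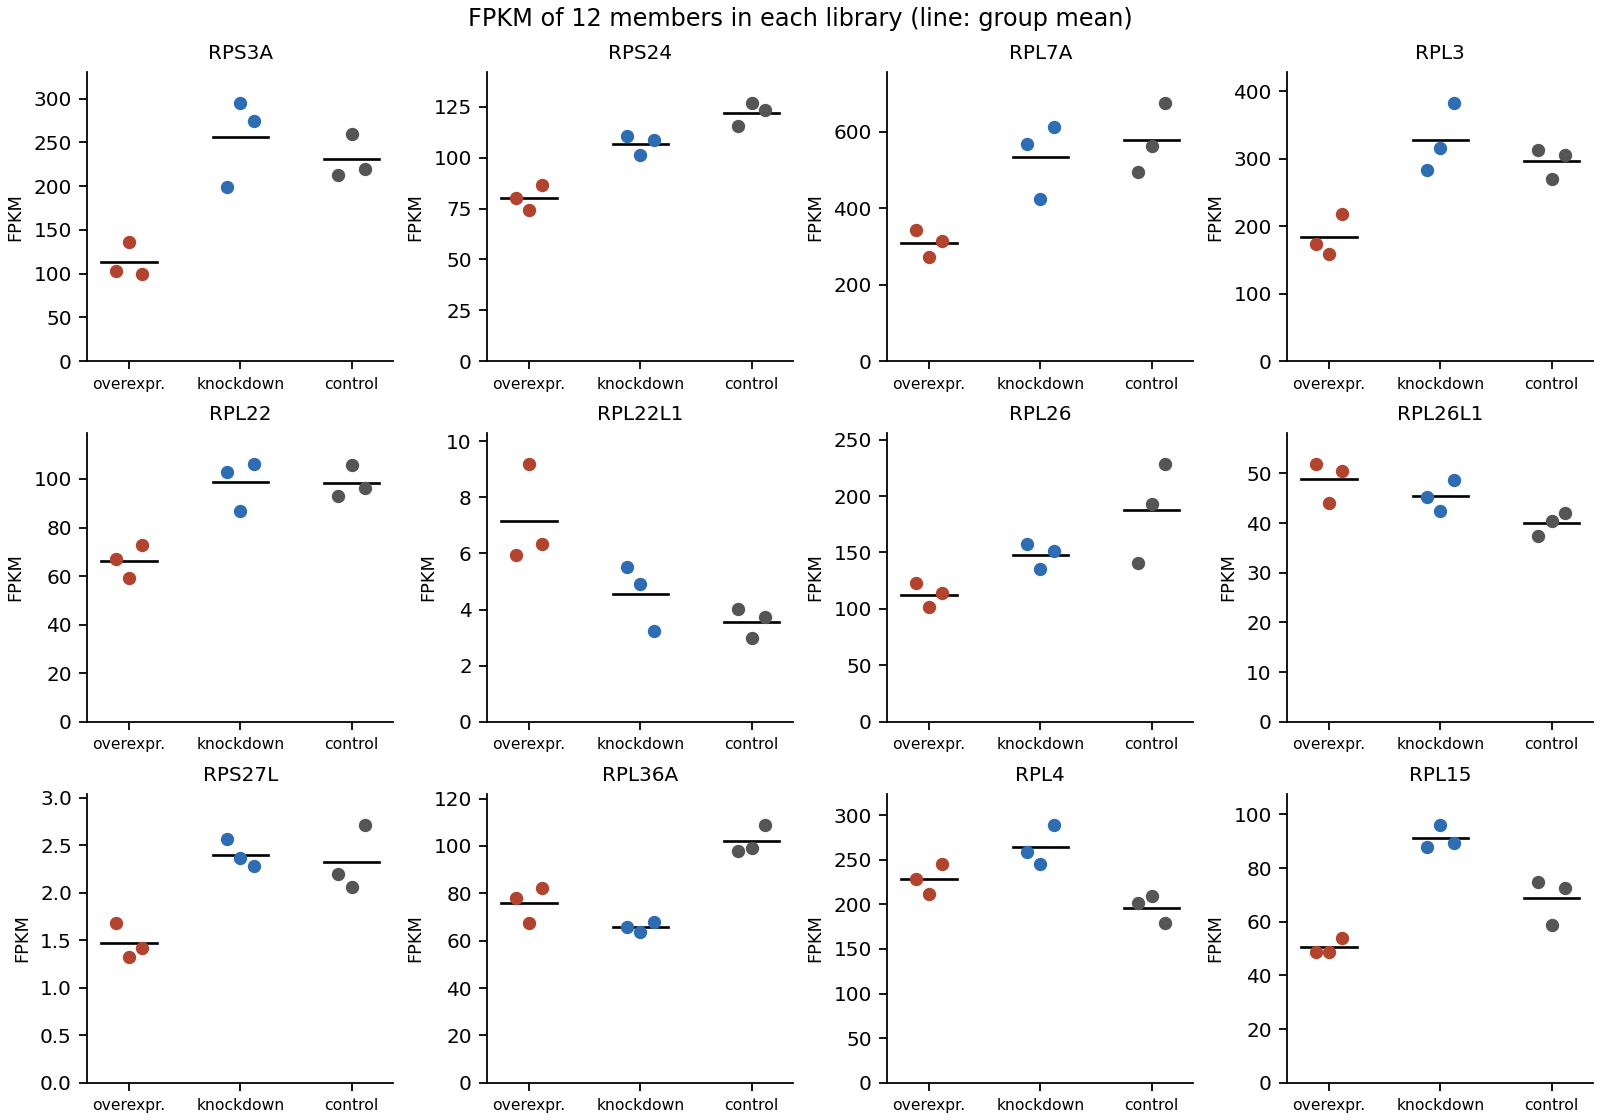
FPKM of 12 members in each of the 9 libraries, by group (overexpression, knockdown, control); points are libraries and lines group means. RPS3A, RPS24, RPL7A, RPL3 and RPL22 have their 3 overexpression points below all others, and RPL22L1 has them above all others.

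Overexpression was compared with control in an edgeR fit of all 12545 genes that passed the FPKM filter, and a gene was called at an adjusted p below 0.05. Most of the called members fell, by modest amounts. Of 82 members, 22 were called (26.8%), against 53.4% of all tested genes. Only 3 of them rose (3.66%, against 27.4% of all genes) and 19 fell (23.2%, against 26.0%), so in this fit the share that fell was near the background and the share that rose was far under it. The share that fell depends on the setting. It was 40.2%, against 30.3% of all genes, with limma on log2(FPKM + 1). It was 37.8%, against 27.5%, with a replicate block, and 36.6%, against 28.7%, with library totals alone. Other settings put it under the background: 13.4%, against 17.9%, with TPM (each library's FPKM scaled to the same sum). Without overexpression 2 or without control 3 it was 19.5%, against 23.1%. The median log2 fold change of the members was -0.20 against -0.004 over all tested genes, and 67 of 82 were negative. Members moved within a narrow band: their interquartile range was 0.304, against 0.945 over all genes. The band was about as narrow in 24 elongation factor and other TOP genes (0.318) and wider in 78 mitochondrial ribosomal protein genes (0.596). Of the members, 1 passed a change of 2-fold (1.22%), against 19.5% of all genes. Without overexpression 1 or without control 1, the count that rose was 1.

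The fit was also run without the 4 libraries with hepatocyte transcripts. This left 1 overexpression and 1 control library and took the spread from knockdown, so calls were lost with the replicates. The members' median log2 fold change was then -0.36, further from 0. The part of those transcripts in the calls was not tested. Scaled to TPM, that is with each library's FPKM values brought to the same sum, the median of all genes shifted to 0.14; the members' median was then -0.04, or -0.18 relative to all genes, with 5 members higher and 11 lower, and 63.9% of all calls were higher in place of 51.3%.

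**Figure D3:**
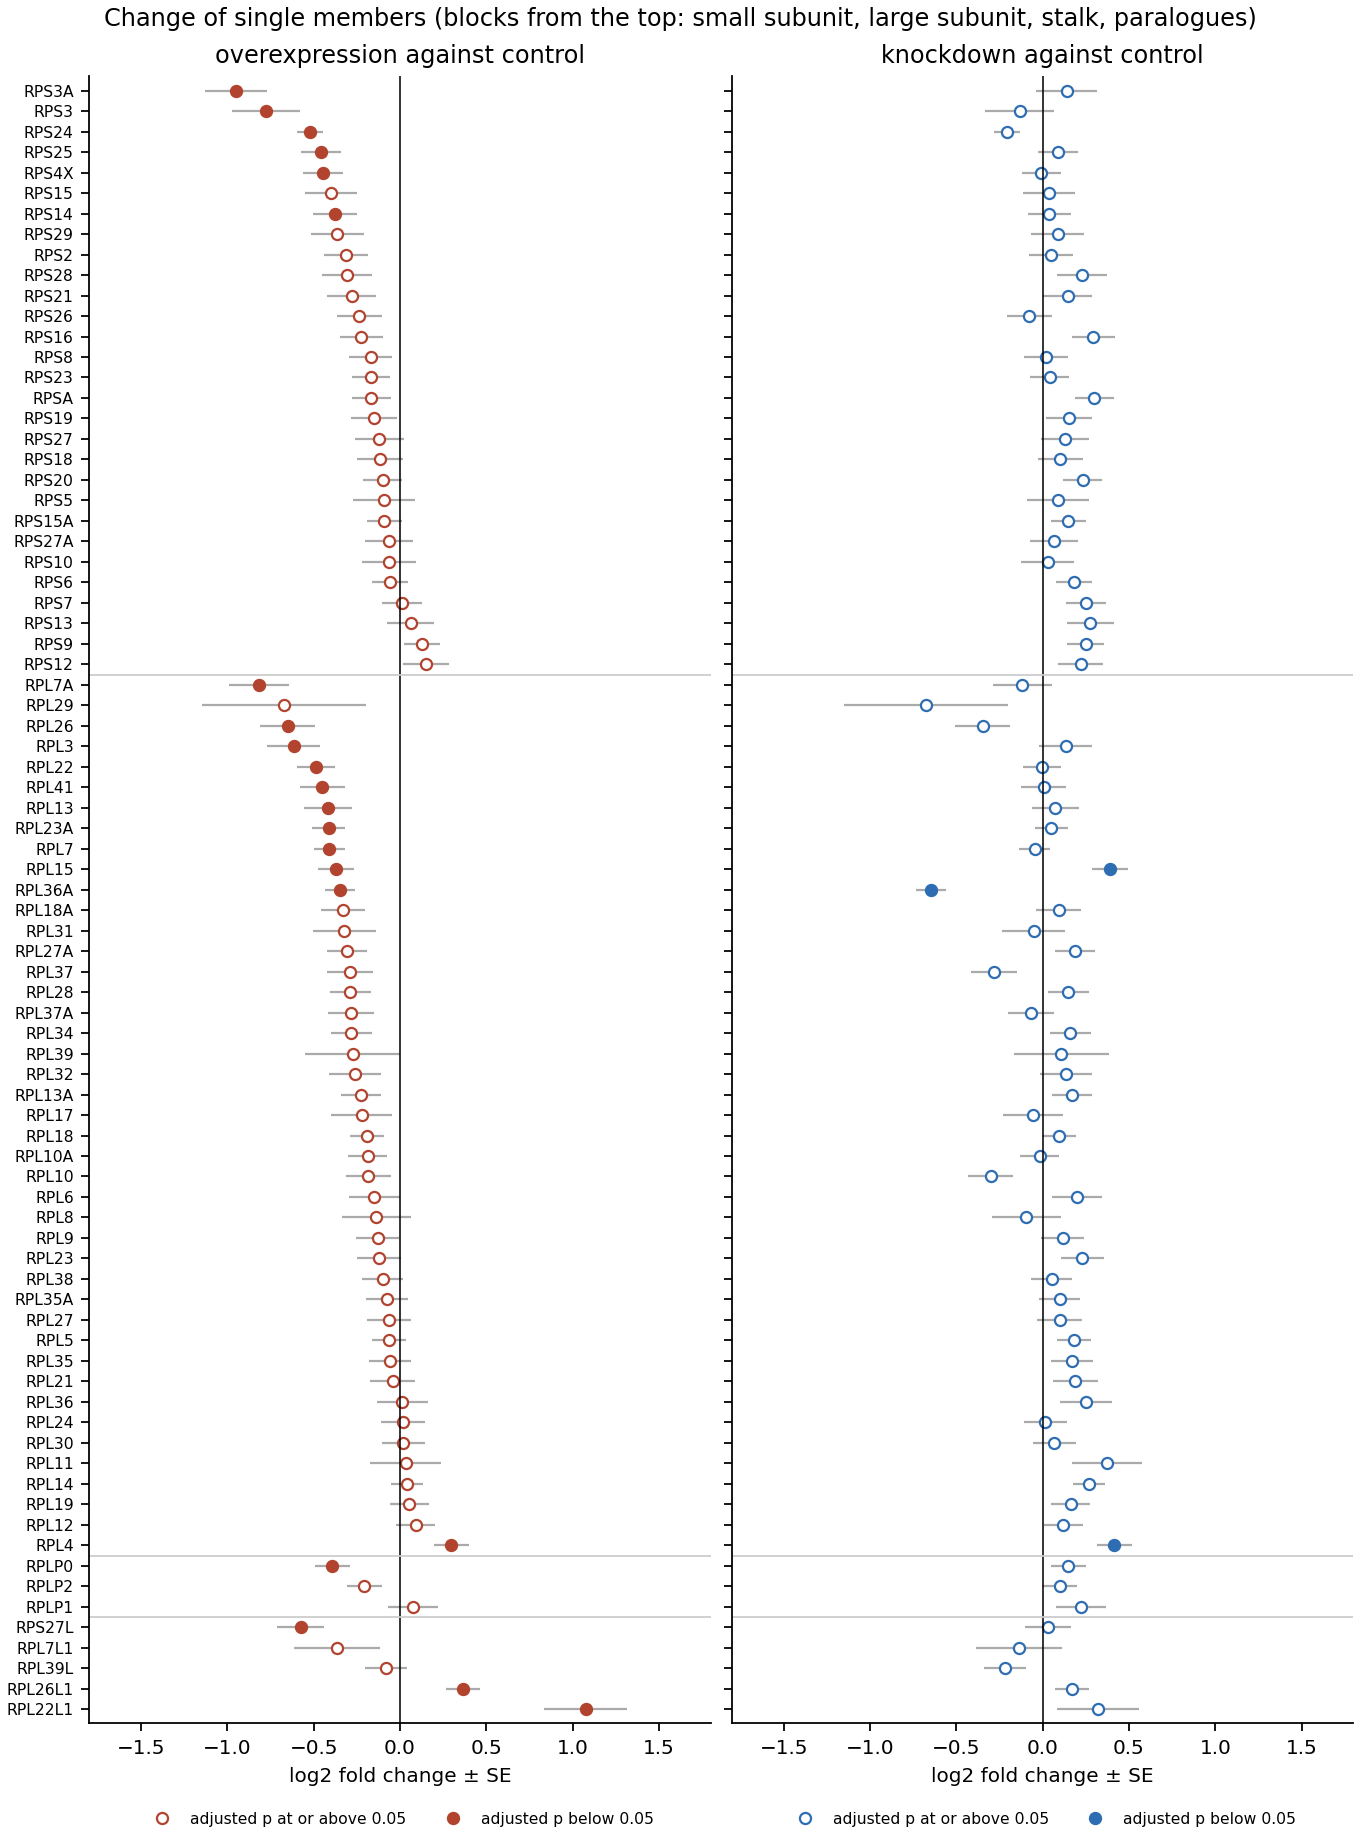
Log2 fold change ± SE of 80 of the 82 members, for overexpression against control (left) and knockdown against control (right), in blocks of small-subunit, large-subunit, stalk and paralogue genes. Filled points passed an adjusted p of 0.05: 21 on the left, 18 of them below 0, and 3 on the right.

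Of 31 small-subunit members, 7 fell (22.6%, against 26.0% of all genes) and 0 rose (against 27.4%) after overexpression. RPS3A, whose protein sits near the mRNA exit and contacts initiation factor eIF3, fell the most of all members: it had 103, 136 and 99 FPKM in overexpression libraries, against 213, 259 and 219.9 FPKM in control libraries. The groups did not overlap, and overexpression 2 was the highest of its group. Its log2 fold change was -0.95 ± 0.18 (SE; adjusted p = 0.0022). RPS24, a protein needed for maturation of the 18S ribosomal RNA and mutated in Diamond-Blackfan anaemia, had 80.1, 74.2 and 86.8 FPKM in overexpression libraries, against 116, 127 and 124 FPKM in control libraries. The groups did not overlap, and with -0.52 ± 0.08 it had the smallest adjusted p of the members (4.9e-04).

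RPS3, which lines the mRNA entry channel, had 107, 66.5 and 101 FPKM in overexpression libraries and 162, 150.2 and 184 FPKM in control libraries. Overexpression 2 was the lowest library, and no overexpression value reached the lowest control value (log2 fold change -0.78 ± 0.20, adjusted p = 0.01). Among the others that fell were RPS25, a protein used in translation from internal ribosome entry sites, RPS4X, the X-linked form of eS4, and RPS14, whose loss of 1 copy contributes to a myelodysplastic syndrome, with log2 fold changes of -0.46, -0.45 and -0.38. RPS14 lost its call in 7 of 21 alternatives, among them the fits without overexpression 2, overexpression 3, knockdown 1 or control 3.

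RPS6, the protein that S6 kinase phosphorylates, was not called, with 184, 160.5 and 179.7 FPKM in overexpression libraries and 182, 185 and 210.4 FPKM in control libraries (log2 fold change -0.06 ± 0.10). RPSA, the laminin receptor precursor, and RPS27A, which is made as a fusion with ubiquitin, were not called either, at -0.17 ± 0.11 and -0.07 ± 0.14. Within the small subunit the log2 fold changes ran from -0.95 to 0.15, with a median of -0.17.

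Of 43 large-subunit members, 10 fell (23.3%, against 26.0% of all genes) and 1 rose (2.33%, against 27.4%). RPL7A had 344, 271 and 314 FPKM in overexpression libraries, against 494, 563 and 675 FPKM in control libraries. RPL3, which reaches toward the peptidyl transferase centre, had 174, 158 and 217 FPKM in overexpression libraries, against 313, 269 and 306 FPKM in control libraries. Neither gene's groups overlapped, and the log2 fold changes were -0.82 ± 0.17 (adjusted p = 0.004) for RPL7A and -0.62 ± 0.16 (adjusted p = 0.0097) for RPL3. RPL26, which lies at the exit of the peptide tunnel, had 123, 102 and 114 FPKM in overexpression libraries, against 141, 193 and 228 FPKM in control libraries. Control 1 was the lowest of its group and still above the 3 overexpression libraries (log2 fold change -0.65 ± 0.16, adjusted p = 0.0087).

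RPL22, a large-subunit protein without which mice are viable, had 66.9, 59.2 and 72.8 FPKM in overexpression libraries, against 93, 106 and 96.1 FPKM in control libraries. The 2 groups were well apart (-0.49 ± 0.11, adjusted p = 0.0057). RPL41, RPL13, RPL23A, RPL7, RPL15 and RPL36A also fell, with log2 fold changes of -0.45, -0.42, -0.41, -0.41, -0.37 and -0.35; RPL13 lost its call in 7 of 21 alternatives, among them the fits without overexpression 2 or 3 or control 1 or 3, and RPL41 in 4, among them those without overexpression 2 or control 3. RPL4, whose protein helps to form the peptide tunnel, was the 1 main gene that rose: it had 229, 211 and 245 FPKM in overexpression libraries, against 201, 209 and 179 FPKM in control libraries. The groups did not overlap, but the difference was small (log2 fold change 0.30 ± 0.10, adjusted p = 0.037) and its call was lost in 11 of 21 alternatives, 6 of them fits without 1 library (overexpression 1 or 3, knockdown 1, control 1, 2 or 3).

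RPL5 and RPL11 form, with the 5S ribosomal RNA, the particle that binds MDM2 when ribosome assembly stalls. RPL5 had 99.2, 90.0 and 99.6 FPKM in overexpression libraries and 100.3, 107 and 112 FPKM in control libraries. RPL11 had 287, 198 and 233 FPKM in overexpression libraries and 243, 241 and 257 FPKM in control libraries. The overexpression and control values of RPL5 lay just apart, those of RPL11 overlapped, and neither gene was called (log2 fold changes -0.06 ± 0.10 and 0.03 ± 0.20). Of the 3 stalk genes, which recruit elongation factors, RPLP0 fell, with 202, 193 and 225 FPKM in overexpression libraries against 300.4, 254 and 303 FPKM in control libraries (-0.39 ± 0.10, adjusted p = 0.011). RPLP2 and RPLP1, the acidic proteins that bind RPLP0, were not called, at -0.21 ± 0.10 and 0.08 ± 0.14, so the stalk genes were not uniform in direction.

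In overexpression against control, the 5 paralogues ranged more widely than the main genes, from -0.575 to 1.08 on the log2 scale. After knockdown they did not, at -0.218 to 0.32, against -0.676 to 0.416 in the large subunit. After overexpression 2 paralogues rose (40%, against 27.4% of all genes) and 1 fell (20%, against 26.0%). RPL22L1, the paralogue of RPL22, had 5.93, 9.18 and 6.33 FPKM in overexpression libraries, 5.5, 4.9 and 3.22 FPKM in knockdown libraries and 4.01, 2.98 and 3.72 FPKM in control libraries. Its overexpression values were the highest and it was the member that passed 2-fold against control (1.08 ± 0.24, adjusted p = 0.0052). In mice, RPL22 protein is known to bind and repress the Rpl22l1 mRNA. Here RPL22L1 rose and RPL22 fell in the same libraries; what links the 2 was not tested.

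Counts of a paralogue relative to its main gene do not depend on library scaling. RPL22L1 counts were 3.91%, 6.82% and 3.83% of RPL22 counts in overexpression libraries, 2.35%, 2.49% and 1.34% in knockdown libraries and 1.9%, 1.25% and 1.71% in control libraries. Every overexpression value was above every other value, and the log2 ratio differed from control by 1.55. RPL26L1 counts were 19.9%, 20.4% and 20.9% of RPL26 counts in overexpression libraries, 13.5%, 14.7% and 15.1% in knockdown libraries and 12.5%, 9.88% and 8.68% in control libraries. The 3 groups were fully separated in that order, by 0.99 between overexpression and control and 0.49 between knockdown and control on the log2 scale. With 3 libraries against 3 the exact two-sided permutation test cannot give a p under 0.1, which both pairs of groups reached (0.214 after adjustment over 15 ratios).

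RPL26L1 by itself had 51.9, 44 and 50.5 FPKM in overexpression libraries, against 37.5, 40.5 and 42.1 FPKM in control libraries (0.37 ± 0.10, adjusted p = 0.013), and lost its call in 4 of 21 alternatives, among them the fits without overexpression 1 or control 1. RPS27L, the paralogue of RPS27, fell: it had 1.68, 1.33 and 1.42 FPKM in overexpression libraries, 2.56, 2.36 and 2.28 FPKM in knockdown libraries and 2.2, 2.06 and 2.71 FPKM in control libraries. Overexpression was apart from both other groups (-0.58 ± 0.13 against control, adjusted p = 0.0067), while RPS27 was not called (-0.12 ± 0.14). RPL39L and RPL7L1 were not called, at -0.08 ± 0.12 and -0.36 ± 0.25, and their ratios to RPL39 and RPL7 overlapped between groups. The longest stretch of identical bases between a paralogue's and its main gene's transcripts was 20 bases for RPS27L and RPL26L1, 17 for RPL22L1 and 67 for RPL39L, and under 15 bases for RPL7L1.

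**Figure D4:**
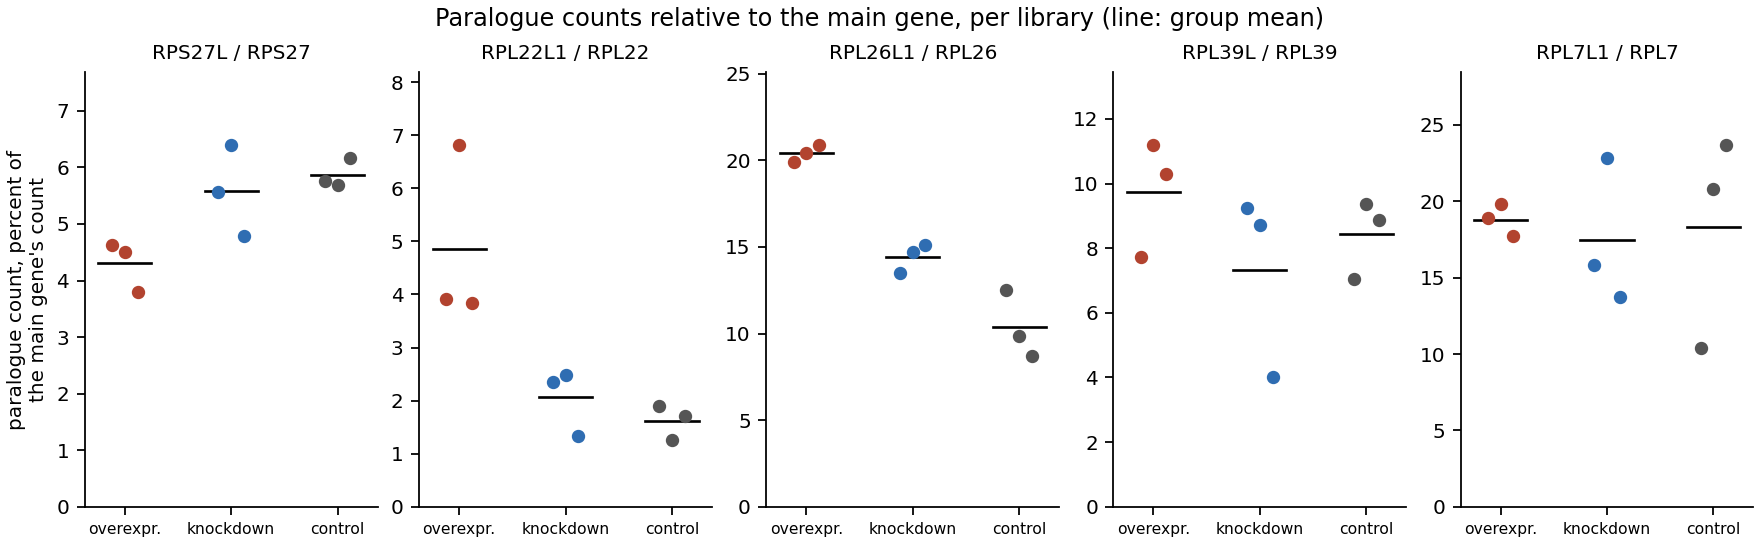
Counts of each of 5 paralogues as a percent of the counts of the main gene, per library, for overexpression, knockdown and control; points are libraries and lines group means. RPL22L1 and RPL26L1 have their overexpression points (3.83% to 6.82% and 19.9% to 20.9%) above all others, and RPL39L and RPL7L1 overlap between groups.

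Knockdown changed few members. Of 82, 3 were called (3.66%), against 14.5% of all tested genes: 2 rose (2.44%, against 7.02%) and 1 fell (1.22%, against 7.43%). At an unadjusted p under 0.05 there were 9 (11%), against 29.4% of all genes. The median log2 fold change was 0.10, against 0.02 over all genes, and 61 of 82 were positive. That median was 0.02 without knockdown 3, 0.04 without control 2 and 0.17 without knockdown 2. With TPM the median of all genes was 0.14, and the members' median relative to it was 0.09, with 7 higher and 1 lower; 75.9% of all calls were then higher, in place of 48.6%. Without the 4 libraries with hepatocyte transcripts, which leaves 1 control library, the members' median was 0.09.

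RPL36A, a large-subunit protein gene, fell in both comparisons with control. It had 77.8, 67.4 and 82.1 FPKM in overexpression libraries, 65.7, 63.8 and 67.7 FPKM in knockdown libraries and 97.9, 99.2 and 109 FPKM in control libraries. Control was the highest group, and overexpression 2 overlapped the knockdown libraries, which were otherwise the lowest. The log2 fold change was -0.65 ± 0.09 for knockdown against control (adjusted p = 0.0028), and the call was kept in 20 of 21 alternatives, all but the one without the 4 libraries. RPL36AL, an autosomal copy with a near-identical protein whose name falls outside the rule, had 214, 190.4 and 212 FPKM in overexpression libraries, 159.9, 150.0 and 169.6 FPKM in knockdown libraries and 232, 214 and 233 FPKM in control libraries. It fell too in knockdown (-0.52 ± 0.09, adjusted p = 0.0085) but was not called in overexpression (-0.06 ± 0.09), and its knockdown call too was kept in 20 of 21 alternatives, all but the one without the 4 libraries. How reads were split between the copies, and between RPL36A and the overlapping genes GLA and RPL36A-HNRNPH2, is not stated in the labels or the table.

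RPL4 had 259, 245 and 289 FPKM in knockdown libraries, against 201, 209 and 179 FPKM in control libraries. RPL15, a large-subunit protein gene, had 87.9, 96 and 89.4 FPKM in knockdown libraries, against 74.9, 58.8 and 72.6 FPKM in control libraries. All knockdown values were above all control values in both genes, and both rose, by 0.42 ± 0.10 (adjusted p = 0.031) and 0.39 ± 0.10 (adjusted p = 0.041) on the log2 scale. These calls were weak: RPL4 lost its call in 9 of 21 alternatives and RPL15 in 11. Fits without any 1 of knockdown 1, knockdown 3, control 2, control 3 or overexpression 1 ended both; without control 1 the call of RPL4 ended, and without knockdown 2, overexpression 2 or overexpression 3 that of RPL15. RPL15 was the 1 member called in opposite directions in the comparisons with control, which share their control libraries.

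Overexpression and knockdown were also compared directly, a comparison of 2 transfected groups. Overexpression cells received a plasmid and knockdown cells an siRNA, so reagent and NUSAP1 level cannot be told apart here either. Of members, 35 of 82 were called (42.7%), against 50.0% of all genes, with 33 lower (40.2%, against 24.5%) and 2 higher (2.44%, against 25.5%). The median was -0.26, against -0.01 over all genes, and 75 of 82 were negative. RPL15 led, with 48.7, 48.6 and 53.9 FPKM in overexpression libraries against 87.9, 96 and 89.4 FPKM in knockdown libraries, and log2 fold change -0.76 ± 0.10 (adjusted p = 4.3e-04). RPS3A had 103, 136 and 99 FPKM in overexpression libraries, against 199, 295 and 275 FPKM in knockdown libraries, the largest difference of any member (-1.09 ± 0.18, adjusted p = 0.0012). RPLP0, RPL3 and RPL23A followed by adjusted p, at -0.54 ± 0.10, -0.75 ± 0.16 and -0.46 ± 0.10.

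All 31 small-subunit members were negative in this comparison and 15 of them were called (48.4%, against 24.5% of all genes called lower). Of 43 large-subunit members, 15 fell (34.9%) and 1 rose (2.33%, against 25.5% of all genes). The 2 higher members were RPL22L1 (0.76 ± 0.24, adjusted p = 0.027) and RPL36A (0.30 ± 0.09, adjusted p = 0.021). RPL22L1 lost this call without overexpression 2, knockdown 2 or knockdown 3, and RPL36A without overexpression 1 or 3 or knockdown 1 or 2; the count of higher members was then 0 or 1. RPS16, the most abundant member, was among those that fell (-0.52 ± 0.12, adjusted p = 0.0081), with 1509, 1203 and 1322 FPKM in overexpression libraries against 2096, 1867 and 2199 FPKM in knockdown libraries. Its call against control was not made (-0.22 ± 0.12). The count of lower members was 18 without overexpression 2 (22%, against 21.6% of all genes). It was 19 without knockdown 1 (23.2%, against 21.1%) and 20 without knockdown 3 (24.4%, against 22.1%). In each of these fits the share was thus near that of all genes. Without knockdown 2 the count was 46 (56.1%, against 23.6%). Without the 4 libraries with hepatocyte transcripts, which leaves 1 overexpression library, the members' median was -0.46. Over the 3 comparisons 38 members were called at least once and 44 in none.

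The spread within groups differed among members, and RPL29, of the large subunit, is named here for its wide spread after its values were seen. RPL29 had 92, 184 and 87.3 FPKM in overexpression libraries, 138, 106 and 143 FPKM in knockdown libraries and 136, 108 and 370.5 FPKM in control libraries, with control 3 and overexpression 2 high. The groups overlapped, its within-group SD was 0.669 on the log2 scale, and it was not called in any comparison. RPS24 was the steadiest member, with a within-group SD of 0.0851.

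Many ribosomal protein genes have processed pseudogenes that can take or give reads. The table held 1237 pseudogene rows for 78 members, and in 9 members these rows held over 10% of the combined counts. RPL21, at 24.9%, RPSA, at 22.9%, and RPL7, at 18.7%, had the largest shares. RPS3A, the member that fell the most, had 7.20%. With the pseudogene counts added to their members, 3 members rose and 20 fell after overexpression, 2 rose and 1 fell after knockdown, and 2 were higher and 33 lower in overexpression against knockdown.

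The spans of 28 members, from gene start to gene end, held 60 snoRNA rows of the table on the same strand. Whether each lies in an intron was not checked. Of these hosts 7 fell (25%) and 1 rose (3.57%) after overexpression. Of the 54 other members 12 fell (22.2%) and 2 rose (3.7%), where 26.0% of all genes fell and 27.4% rose. The medians were -0.23 and -0.18. Against knockdown, 15 of 28 hosts (53.6%) and 18 of 54 other members (33.3%) were lower, where 24.5% of all genes were. Of 19 tested genes named as small nucleolar RNA hosts, 14 rose (73.7%, against 27.4% of all genes) and 0 fell after overexpression, with a median of 0.65. GAS5, a noncoding TOP transcript that is degraded when translated, had 20.4, 19.2 and 20.9 FPKM in overexpression libraries, against 6.48, 7.49 and 7.5 FPKM in control libraries (log2 fold change 1.57 ± 0.08, adjusted p = 1.7e-06). SNHG12 had 4, 3.47 and 4.15 FPKM in overexpression libraries, against 1.06, 1.22 and 1.15 FPKM in control libraries (1.82 ± 0.12, adjusted p = 6.7e-06). Over 20 of the alternatives, 12 to 17 of the 19 rose; without the 4 libraries with hepatocyte transcripts 5 did.

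Genes that act in ribosome assembly were higher after overexpression. Of 49 ribosome biogenesis factors, 41 rose after overexpression (83.7%, against 27.4% of all genes) and 3 fell, with a median of 0.78, against 3.66% of ribosomal protein genes that rose and their median of -0.20. RRP12, which in yeast takes part in the export of both subunits, had 29.4, 25.8 and 27.2 FPKM in overexpression libraries, against 5.58, 5.89 and 5.92 FPKM in control libraries (log2 fold change 2.32 ± 0.07, adjusted p = 1.9e-07). WDR43, a component of the small-subunit processome, had 49.4, 53.2 and 50.6 FPKM in overexpression libraries, against 19.1, 19.8 and 18.1 FPKM in control libraries (1.51 ± 0.08, adjusted p = 2.2e-06). GNL2 and BRIX1, large-subunit assembly factors, rose by 1.22 ± 0.07 and 1.43 ± 0.09. UBTF, the transcription factor of RNA polymerase I, was among those that fell (-0.79 ± 0.08, adjusted p = 5.9e-05), with NHP2 and HEATR3.

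Knockdown left most biogenesis factors uncalled: 3 rose (6.12%, against 7.02% of all genes) and 3 fell of 49, with a median of 0.10. Without the 4 libraries with hepatocyte transcripts the median was 0.06. EIF6, which keeps the large subunit from joining too early, had 132, 108 and 122 FPKM in overexpression libraries, 49.1, 45.3 and 51 FPKM in knockdown libraries and 78.7, 77.9 and 86.5 FPKM in control libraries. It was thus higher than control after overexpression (0.66 ± 0.10, adjusted p = 6.9e-04) and lower after knockdown (-0.75 ± 0.10, adjusted p = 0.0025). In overexpression against knockdown, 38 factors were higher (77.6%, against 25.5% of all genes) and 3 lower (6.12%, against 24.5%), with a median of 0.65. Without the 4 libraries that median was 0.64. Over 20 of the alternatives, 37 to 43 factors rose after overexpression and the median stayed between 0.60 and 0.89; without the 4 libraries with hepatocyte transcripts 18 rose, with a median of 0.69.

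**Figure D5:**
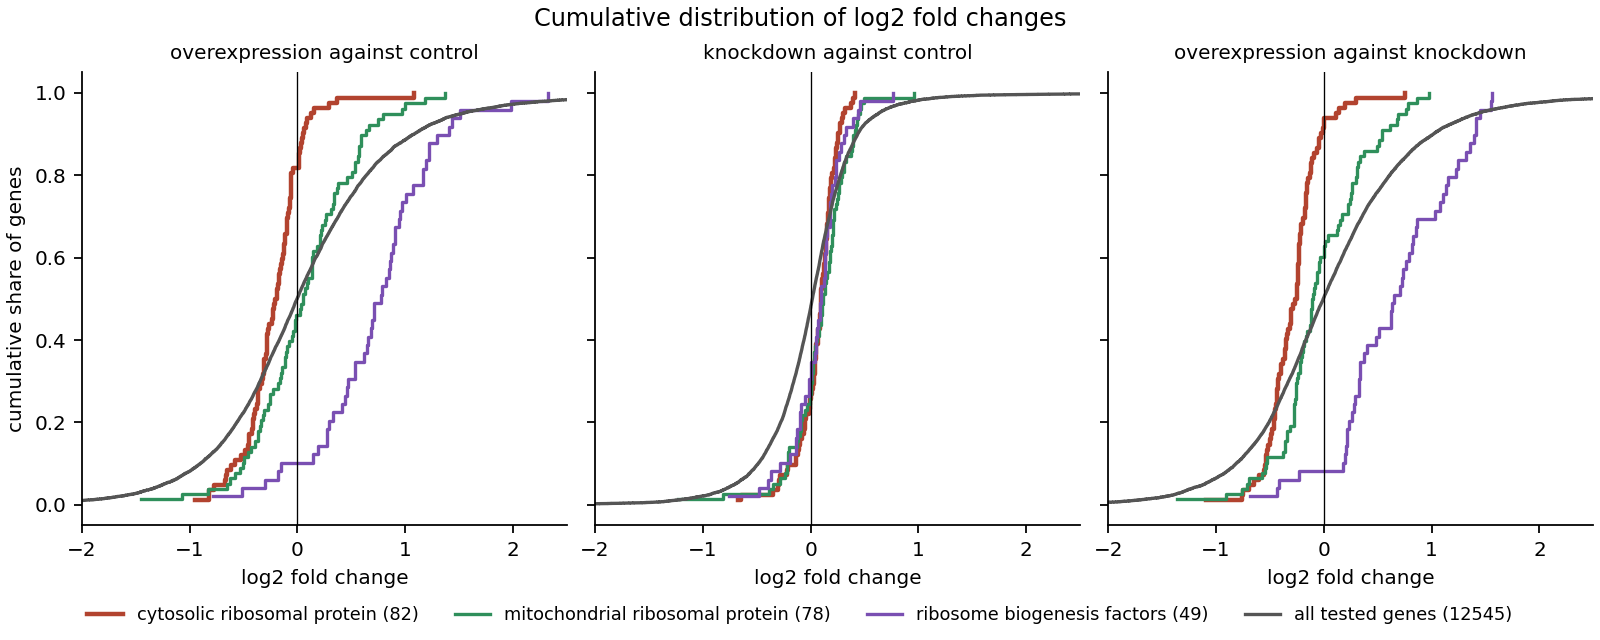
Cumulative share of genes by log2 fold change in the 3 comparisons, for the 82 members, 78 mitochondrial ribosomal protein genes, 49 ribosome biogenesis factors and all 12545 tested genes; the axis is cut at -2 and 2.5. After overexpression the members rise steeply just left of 0 (median -0.20) and the biogenesis factors lie to the right (median 0.78), while after knockdown the 3 lists run close together.

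Other mRNAs of the TOP class were called in both directions. Of 24 elongation factor and other TOP genes, 5 fell (20.8%, against 26.0% of all genes) and 2 rose (8.33%, against 27.4%) after overexpression, both shares below those of all genes, with a median of -0.14. With the 4 libraries that hold hepatocyte transcripts left out, 2 fell and 1 rose, with a median of -0.26. Over the other 20 alternatives 2 to 8 fell and 1 to 4 rose, and 3 of the 24 encode ribosomal proteins or fusions outside the name rule. EEF1A1, the factor that brings aminoacyl-tRNA to the ribosome, had 1366, 1268 and 1435 FPKM in overexpression libraries, against 2384, 2614 and 2820.0 FPKM in control libraries (-0.86 ± 0.10, adjusted p = 1.2e-04), a call kept in 20 of 21 alternatives and lost without the 4 libraries with hepatocyte transcripts. EEF1G fell as well (-0.78 ± 0.14, adjusted p = 0.0014). EEF2, the translocation factor, rose slightly (0.22 ± 0.07, adjusted p = 0.034), and EIF4A2, a helicase of initiation, rose more (1.26 ± 0.10, adjusted p = 1.8e-05). With TPM the median of this list was 0.01, where the median of all genes was 0.14.

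Mitochondrial ribosomal protein genes, which serve the separate ribosome of mitochondria, were called in both directions: 22 rose (28.2%, against 27.4% of all genes) and 12 fell (15.4%, against 26.0%) of 78 after overexpression, with a median of 0.05. The share that rose was thus at the background. Without the 4 libraries with hepatocyte transcripts 5 rose and 3 fell, and the median turned to -0.12; over the other 20 alternatives it ran from -0.02 to 0.21. After knockdown 7 rose (8.97%, against 7.02%) and 0 fell, with a median of 0.11; 1 to 20 rose over those 20 alternatives, and 0 without the 4 libraries. MRPS30 had 13.9, 13.3 and 15 FPKM in overexpression libraries, against 5.85, 5.5 and 5.96 FPKM in control libraries (1.36 ± 0.08, adjusted p = 3.3e-06), and MRPL30 had 3.46, 3.89 and 3.36 FPKM in overexpression libraries, against 9.95, 10.02 and 11 FPKM in control libraries (-1.45 ± 0.11, adjusted p = 1.6e-05). Of 22 genes of ribosomal protein folding and ribosome quality control, 16 rose (72.7%, against 27.4% of all genes) and 2 fell after overexpression, with a median of 0.64. Leaving out the 4 libraries gave 6 that rose and 0 that fell, with a median of 0.72, and 11 to 17 rose over the other 20 alternatives. ZNF622, an assembly and quality control factor of the large subunit, led (1.57 ± 0.09, adjusted p = 5.0e-06), and PELO, which rescues stalled ribosomes, had 1.02 ± 0.14 (adjusted p = 3.8e-04).

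Of 18 regulators of ribosomal protein mRNAs, 6 rose (33.3%, against 27.4% of all genes) and 3 fell (16.7%, against 26.0%) after overexpression. After knockdown 7 rose (38.9%, against 7.02%) and 1 fell (5.56%, against 7.43%). The median log2 fold changes of the 18 were 0.16 after overexpression and 0.30 after knockdown. When the 4 libraries with hepatocyte transcripts were left out, these medians were 0.02 and 0.14. EIF4EBP2, a repressor of cap-dependent initiation that mTOR switches off, had 6.15, 6.87 and 6.56 FPKM in overexpression libraries, 19.4, 18.8 and 18 FPKM in knockdown libraries and 8.94, 8.37 and 7.92 FPKM in control libraries. Knockdown was the high group (1.14 ± 0.08 against control, adjusted p = 1.6e-04), and overexpression lay below control (-0.29 ± 0.08, adjusted p = 0.014). MTOR rose in both, by 0.51 ± 0.08 after overexpression and 0.61 ± 0.08 after knockdown. SESN2 and DDIT4, both inhibitors of mTOR complex 1, changed oppositely after overexpression (2.03 ± 0.09 and -2.36 ± 0.12).

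MYC, a transcriptional activator of ribosome production, had 36, 30.3 and 4.41 FPKM in overexpression libraries, 12.5, 10.4 and 1.06 FPKM in knockdown libraries and 13.1, 12.3 and 12.7 FPKM in control libraries. Overexpression 3 and knockdown 3 were low within their groups, and it was not called in any comparison. LARP1, which binds the TOP tract, also varied within groups, with 12.8, 27.9 and 25.1 FPKM in overexpression libraries, 34.6, 33.3 and 30.5 FPKM in knockdown libraries and 30.2, 15.7 and 13.2 FPKM in control libraries, and was not called.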

How the data were processed

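Poly(A)-selected RNA of 9 PANC1 libraries was sequenced after a dUTP library protocol, per the labels. Reads had passed through StringTie 1.3.4d, HISAT2 2.0.4 and cutadapt 1.9, tools listed without order in the submitters' processing notes. Their settings, the genome build and the use of strand in counting are each not given in the sources used here. Per gene, the authors deposited whole-number read counts and FPKM values, which write 0 as 0.0001. All sample columns were used.

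The members, gene lists, tests and alternatives were chosen with earlier results of these data known. Counts of the 12545 genes that reached 1 FPKM in 3 or more of 9 libraries were fitted with edgeR 4.0.16 (R 4.3.3) by its quasi-likelihood test with TMM factors, in 1 model of 3 groups with 6 residual degrees of freedom, and p-values were adjusted by Benjamini-Hochberg over all of them. Each SE is the log2 fold change divided by the root of its F value, an approximation. The fit was checked on simulated data. Alternatives were DESeq2 1.42.0 on counts and limma 3.58.1 on log2(FPKM + 1), and limma was also run on TPM, made by scaling each library's FPKM to the same sum. Paralogue ratios were compared with exact permutation tests. Total counts were 57115172 to 73386227 per library.

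The genes named are the called members (up to 10 by adjusted p in each direction and comparison), the 5 highest and 5 lowest in control, the paralogues with their main genes, the stalk genes, RPL5, RPL11, RPS6, RPSA, RPS27A and RPL41, and up to 4 genes of each list and comparison by adjusted p. Not all are printed, and some genes that the rule names are not reported here, though they stay in every fit and count. Members past the tenth by adjusted p, and listed genes outside this rule, were named after their values were seen. The labels do not say whether replicate numbers pair libraries. Correlations of deviations between same-numbered libraries were not all over 0.1, so the main fit compared the groups without a block. Pairing is not excluded by this.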

Additional observations from a re-analysis of the deposited data

How the results depend on the processing

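For the members, overexpression against control gave 3 higher and 19 lower. With library totals alone 30 were lower, with limma on log2(FPKM + 1) or log2(FPKM + 0.1) 33 lower, with TPM 5 higher and 11 lower (median -0.0446), and with quantile-normalized values 10 higher and 30 lower. Without the FPKM filter 1 was higher. Without the 4 libraries with hepatocyte transcripts 0 were higher and 1 lower (median -0.358), 2419 genes were called in all, and the members' share of overexpression counts was 4.33%. Leaving out 1 library at a time gave 1 to 3 higher. Knockdown against control gave 2 higher and 1 lower. DESeq2 called 2767 genes in all; without the filter 1058 were called and 0 members were higher, and 0 were higher when only the 2 groups were fitted. With TPM 7 members were higher, and with quantile-normalized values 11 were higher and 4 lower. Without the 4 libraries, 0 members were higher, 0 lower and 6 genes called. Leaving out 1 library gave 0 to 1 higher, 1 to 2 lower and 962 to 1702 genes called. Overexpression against knockdown gave 2 higher and 33 lower. Library totals or limma on FPKM gave 1 higher, no filter 0, and quantile-normalized values 4. Without the 4 libraries 0 were higher and 16 lower (median -0.455), with 3539 genes called. Leaving out 1 library gave 0 to 2 higher and 18 to 46 lower. With the replicate block, 31 members were lower after overexpression, 5 were higher and 3 lower after knockdown, and 48 were lower in overexpression against knockdown. Same-numbered knockdown and control libraries correlated at 0.0744, 0.161 and 0.171, and each correlated best with its own number, a hint from the data and not the design. Overexpression did not show this throughout. Its same-numbered correlations were -0.073, 0.0782 and 0.0501 with control, and -0.0256, 0.339 and 0.0845 with knockdown. Overexpression 1 correlated best with control 3 (0.164) and knockdown 3 (0.287). The cause of the differences between alternatives was not tested. A tally of single calls took every called member in the comparisons with control. In overexpression against knockdown it took the 2 higher members and, of 33 lower ones, the 5 with the smallest adjusted p. It thus leans to the stronger calls there. Over these 32 calls and 21 alternatives, 579 of 672 kept the call, 93 lost it and 0 changed direction. The alternatives for the other gene lists and for RPL36AL and EEF1A1 were chosen after seeing the data. With 3 libraries per group, small changes of single members could be missed, and an uncalled member is not shown to be unchanged.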
